A study of Mus musculus with 67 samples.

Results

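The change from day 5 to day 6 of differentiation was described in p2 neural progenitors (NPs), the ventral spinal cord progenitors that give rise to V2 interneurons. Members were chosen by the sample labels alone: the 6 p2 samples at day 5 and the 6 at day 6, which made 12 of the 67 samples of the series. Accessibility had been measured by CaTS-ATAC, in which fixed cells are transposed, stained for transcription factors (TFs) inside the cell, sorted and sequenced. All samples came from HM1, a mouse embryonic stem (ES) cell line, so that the replicates were separate differentiations of 1 line and not separate animals. Cells had been given retinoic acid and the smoothened agonist SAG, which activates the Sonic hedgehog (Shh) pathway, from day 3. The 4 groups were day 5 p2 at 10 nM SAG, day 5 p2 at 100 nM SAG, day 6 p2 at 10 nM SAG and day 6 p2 at 100 nM SAG, with 3 replicates in each. Where samples with the same replicate number share a differentiation, the 6 samples of a day are 3 paired units and not 6 independent ones. The p2 gate took cells positive for SOX2, NKX6.1 and PAX6 and without OLIG2. Dishes also held other NP types, which were sorted away by these proteins and not by a reporter.

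In the neural tube, p2 progenitors lie between the p1 progenitors, which lack NKX6.1, and the motor neuron progenitors (pMN), which express OLIG2. As development goes on, progenitors turn on proneural TFs and leave the cell cycle as neurons, and later still turn to making glia. An accessible element is a stretch of DNA from which nucleosomes are displaced, most often because TFs bind there, and it may lie at the start of a gene or far from it. Elements are named here by the gene whose transcription start site (TSS) is nearest in the deposited annotation, which does not show that the element acts on that gene.

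Sequences are given for the elements that carried the largest changes described in the text. They are the central 200 bases of the elements with the largest increases (Olfr509 and Nsmce1) and the largest decreases (Gm34637 and Fscb), and of the element with the largest decrease near a gene of the pathway lists described further on (Sox1). They were read from the GRCm38 reference, which has the coordinates of mm10. Capitals mark matches, on either strand, to 6 short motifs that were more than 1.9 times as frequent among the elements that changed in 1 of the directions as among all elements tested, promoters included. Outside promoters, where nearly all changed elements lay, only CATATG passed that ratio. The motifs were CATATG (an E-box of OLIG and some NEUROD factors), ATGCAAA (bound by POU factors), AGGTCA (a hexamer bound by nuclear receptors), ACAATGG (bound by SOX factors), TAATTA (bound by homeodomain factors) and GGAATG (bound by TEAD factors).
Olfr509, chr7:108646018-108646217, plus strand: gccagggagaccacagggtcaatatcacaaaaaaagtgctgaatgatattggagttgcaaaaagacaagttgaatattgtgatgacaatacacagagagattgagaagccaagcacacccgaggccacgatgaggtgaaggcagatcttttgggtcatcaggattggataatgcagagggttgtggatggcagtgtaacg
Nsmce1, chr7:125517246-125517445, plus strand: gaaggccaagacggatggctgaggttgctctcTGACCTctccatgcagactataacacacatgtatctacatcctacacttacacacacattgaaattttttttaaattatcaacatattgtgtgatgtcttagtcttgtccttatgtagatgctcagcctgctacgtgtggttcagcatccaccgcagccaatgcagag
Gm34637, chr12:12746969-12747168, plus strand: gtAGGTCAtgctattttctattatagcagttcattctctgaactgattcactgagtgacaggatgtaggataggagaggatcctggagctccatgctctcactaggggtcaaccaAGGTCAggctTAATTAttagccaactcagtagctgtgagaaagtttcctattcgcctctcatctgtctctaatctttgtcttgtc
Fscb, chr12:63918036-63918235, plus strand: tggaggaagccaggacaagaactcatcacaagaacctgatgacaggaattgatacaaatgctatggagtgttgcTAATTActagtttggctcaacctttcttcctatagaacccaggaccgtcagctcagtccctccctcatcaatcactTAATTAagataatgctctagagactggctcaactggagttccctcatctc
Sox1, chr8:12409741-12409940, plus strand: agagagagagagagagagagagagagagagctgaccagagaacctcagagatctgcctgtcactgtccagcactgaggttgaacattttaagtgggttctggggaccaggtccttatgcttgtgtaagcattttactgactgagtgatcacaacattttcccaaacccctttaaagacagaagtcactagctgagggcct
The Gm34637 window held AGGTCA at bases 3 and 116, counted from 1 at the left end, and TAATTA at base 126. The Fscb window held TAATTA at bases 75 and 151, and the Nsmce1 window held AGGTCA on the minus strand at base 33. None of the 6 motifs was found in the Olfr509 and Sox1 windows. A match is a description of the letters and not evidence of binding.

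The values were read counts in 111638 consensus elements, which the authors scaled by size factors and transformed to log2 values. Inverting that transformation gave between 13485605 and 29985325 reads in elements for the 12 samples, with a median of 21740970. The squared Pearson correlation across elements was between 0.875 and 0.976 for samples of the same condition. The lowest values belonged to day 6 replicate 3 at 100 nM SAG, for which it was 0.875 and 0.892 with the other replicates of that condition, but 0.922 with day 5 replicate 3 at 100 nM.

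To place each sample between the days, elements were called from the other 11 samples and the sample was put on a scale from 0, the mean of the other day 5 samples, to 1, the mean of the other day 6 samples. Day 5 samples lay between -0.256 and 0.372. Of the day 6 samples, 5 lay between 0.907 and 1.29, and day 6 replicate 3 at 100 nM lay at 0.316, below the 0.372 of day 5 replicate 1 at 10 nM. In each of the 4 conditions the sample numbered 1 had the highest position and the sample numbered 3 the lowest. Counts over all elements and over gene lists are therefore given with and without day 6 replicate 3 at 100 nM, which had 15318155 reads. In sorted samples assayed in bulk, a change in the share of cells with an open element and a change in how open it is in each cell cannot be told apart.

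**Figure D1:**
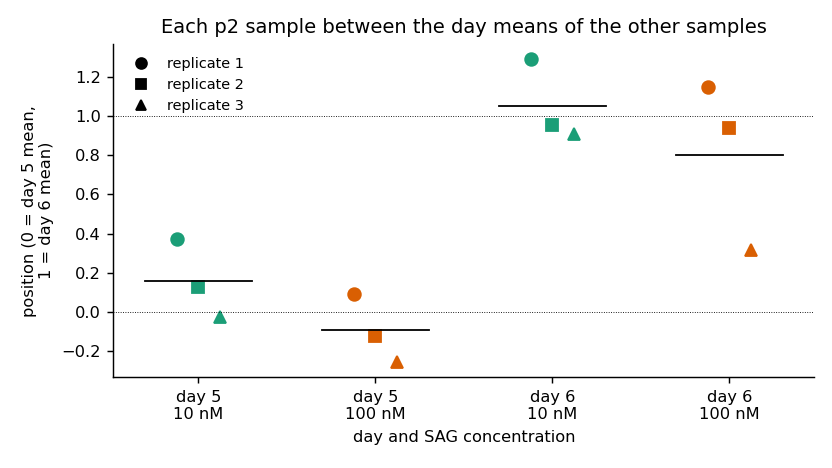
Position of each of the 12 p2 samples between the day means of the other samples (vertical axis, no unit), by day and SAG concentration (horizontal axis). Shapes give the replicate number and lines the mean of 3; day 6 replicate 3 at 100 nM sits at 0.316, apart from the other day 6 samples, which sit between 0.907 and 1.29.

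Elements were tested with limma on the log2 values, with SAG concentration as a covariate, over the 32424 whose mean across the 12 samples exceeded 100 normalized counts. An element was called when its Benjamini-Hochberg adjusted p was under 0.01 and its mean normalized count differed more than 2-fold. Between day 5 and day 6, 1496 elements were called, 4.61% of those tested. Of these, 897 were higher at day 6 (2.77% of those tested) and 599 lower (1.85%). At a stricter absolute log2 fold change above 2, 97 elements were called (0.299%), 72 higher (0.222%) and 25 lower (0.0771%). Samples with the same replicate number were treated as independent in this fit. Between conditions, their deviations from condition means correlated between 0.417 and 0.771. The SDs and adjusted p values given for single elements therefore do not allow for shared differentiations. With the replicate number as a block, all 1496 were called again, among 1685.

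Without day 6 replicate 3 at 100 nM, 2439 elements were called, 7.52% of the 32455 then tested, and 1453 of the 1496 were among them. The prevailing direction then turned, with 1180 higher and 1259 lower, and the stricter count was 165, with 89 higher and 76 lower. The direction also turned when each sample was centered on its median, which gave 707 higher and 723 lower and moved the median log2 fold change of all tested elements from 0.11 to 0.01. At the 2-fold threshold no excess of gains over losses therefore held across these settings. By the stricter rule more elements were higher than lower in each of them, with 57 higher and 38 lower after centering.

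**Figure D2:**
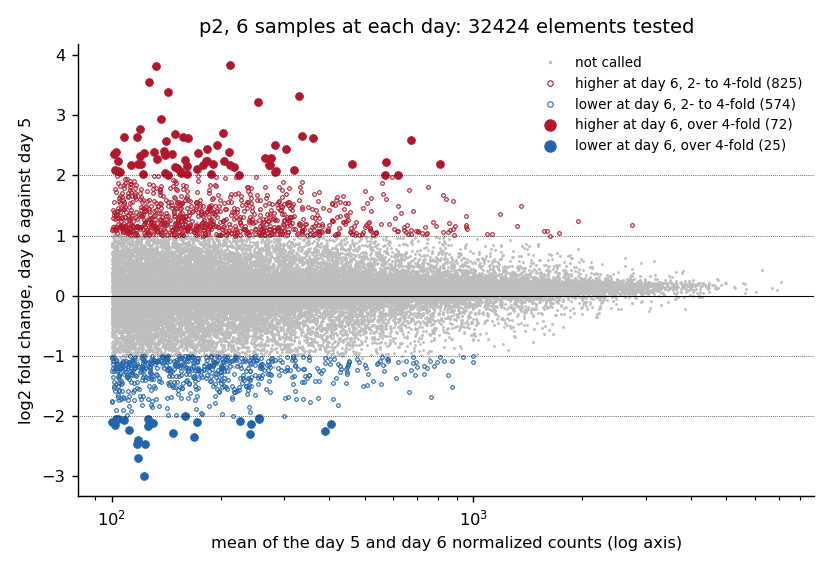
Log2 fold change between day 5 and day 6 in p2 (vertical axis) against the mean of the day 5 and day 6 normalized counts (horizontal axis, log scale) for 32424 elements. Colored points are the 897 elements called higher and the 599 called lower, filled where the absolute log2 fold change is above 2; most lie at low and middle levels.

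Called elements lay away from promoters. Of 6852 tested elements annotated as promoter-TSS, 2 were called higher and 11 lower, 0.19% in all, against 8.11% of 10013 intergenic and 5.42% of 11460 intronic elements. Promoters made up 21.1% of the tested elements, 0.223% of those higher at day 6 and 1.84% of those lower. Without day 6 replicate 3 at 100 nM, 0.438% of promoter and 9.41% of other elements were called. The median distance to the nearest TSS was 63809 bp for elements higher at day 6, 52451 bp for those lower and 10527 bp for all tested. Median GC content was 45.1%, 45.4% and 52% in the same order. The promoters called higher were those of Sncg, a synuclein (74.4 to 172 normalized counts), and Dcun1d4 (274 to 561), and were named because they were so few.

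The earlier history of the called elements differed between the directions. Elements higher at day 6 had a median of the condition means of 9.48 normalized counts in the neuromesodermal progenitors of day 3, 29.7 in p2 at day 4, 101 at day 5 and 265 at day 6. Elements lower at day 6 stood at 19.0 at day 3, 266 at day 4, 248 at day 5 and 99.9 at day 6. All tested elements had medians of 288, 266, 312 and 328. The day 5 and day 6 values chose these elements and are given as a description. Calls of higher elements favor those low at day 5, and calls of lower elements those high at day 5. How far this choice sets the day 3 and day 4 medians was not tested.

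The largest increase was at an element over the only exon of Olfr509, an olfactory receptor gene, at chr7:108645667-108646568. At day 5 its normalized counts were between 12.03 and 47.0 with a median of 24.3, and at day 6 between 243 and 660 with a median of 370. Its mean rose 14.4-fold, from 26.8 ± 11.8 to 399 ± 157 (SD, n = 6 each), with an adjusted p of 4.64e-06 by limma. No day 6 sample reached down to a day 5 sample. This held for 88 of the 97 elements passing the stricter rule and for 10% of all tested elements, and since the rule used these values nothing is read from it. Olfactory receptors are a large family of similar genes, and how reads shared among copies were counted was not examined.

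An intergenic element near Nsmce1, which encodes a subunit of the SMC5/6 complex of DNA repair, at chr7:125516843-125517849, was between 12.9 and 21.6 at day 5 and between 179 and 345 at day 6, with medians of 15.9 and 232. The log2 difference on the deposited scale was 3.19 ± 0.14 (SE), with an adjusted p of 3.34e-07. An intergenic element near Slc26a7, an anion transporter gene, at chr4:14653387-14654354, was between 12.8 and 25.8 at day 5 and between 87.0 and 320 at day 6, with medians of 19.3 and 282. Day 6 replicate 3 at 100 nM gave the lowest of these day 6 values at both elements.

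Normalized counts near Mir125b-1, at chr9:41760262-41761701, were between 11.8 and 48.6 at day 5 and between 112 and 481 at day 6. The gene hosts the microRNA miR-125b, which is abundant in the nervous system, and the element lay 179055 bp from its annotated start. An intergenic element assigned to 1700113H08Rik, at chr10:87237400-87238155, was between 41.0 and 84.5 at day 5 and between 387 and 775 at day 6. An intronic element of Aig1, at chr10:13753159-13754563, was between 37.3 and 70.5 at day 5 and between 328 and 576 at day 6. The day 5 and day 6 samples did not overlap at any of these elements.

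The other 4 of the 10 largest increases were an intronic element of Dlg1, a scaffold protein of cell junctions (7.69-fold), one near Rassf10 (6.81-fold), one in Gm35725 (6.51-fold) and one near Dlx6, a homeobox gene of forebrain and branchial arch development (6.44-fold). At p2 day 4 the 10 elements had means between 2.36 and 17.9 normalized counts.

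An intergenic element near Gm34637 had the largest decrease, at chr12:12746626-12747511. Its normalized counts were between 81.3 and 366 at day 5, with a median of 210, and between 8.97 and 40.7 at day 6, with a median of 28.5. Its mean fell 7.95-fold, from 219 ± 92.4 to 26.7 ± 11.9 (SD, n = 6 each), with an adjusted p of 5.3e-05 by limma. An element at chr12:63917919-63918352 was assigned to Fscb, a gene of the sperm tail, and lay 556763 bp from the Fscb TSS. Its normalized counts were between 158 and 244 at day 5 and between 25.3 and 38.5 at day 6. The adjusted p was 1.42e-06 by limma. Both groups were narrow at this element, and day 6 replicate 3 at 100 nM lay within the range of the other day 6 samples.

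The other 8 of the 10 largest decreases were between 4.73-fold, near Ythdf3, and 5.54-fold, near Col4a2, a basement membrane collagen. They included an element near Hs3st3b1, a heparan sulfate sulfotransferase, which went from between 499 and 851 at day 5 to between 81.4 and 219 at day 6, and elements near Atp6v0a1, Sema4a and Gm8013 and in introns of Chmp4c and Zfand3. At Zfand3 the groups overlapped: day 5 ranged from 91.3 to 448 and day 6 from 10.2 to 135, the 135 being day 6 replicate 3 at 100 nM.

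**Figure D3:**
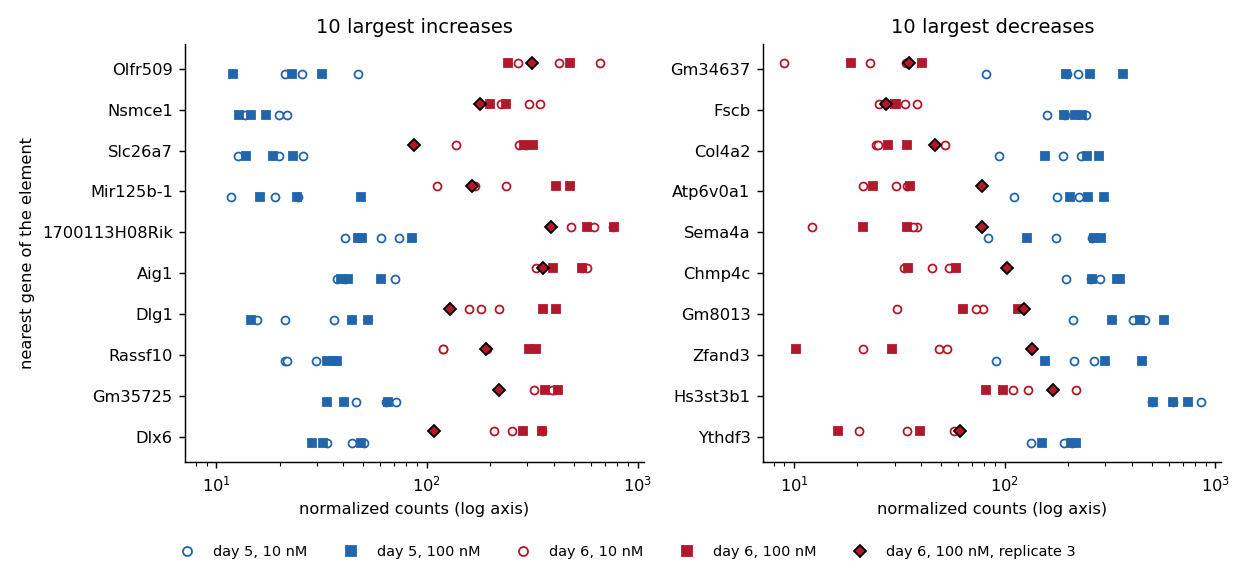
Normalized counts (horizontal axes, log scale) of the 10 elements with the largest increases (left) and the 10 with the largest decreases (right) in each of the 12 p2 samples; rows are named by the nearest gene. Day 5 is blue and day 6 red, open for 10 nM and filled for 100 nM, and day 6 replicate 3 at 100 nM is a diamond; at most elements of each panel it lies nearer to day 5 than any other day 6 sample.

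Genes were then grouped by pathway, and the elements nearest to them counted against the 2.77% of all tested elements called higher and the 1.85% called lower. The median log2 fold change of all tested elements was 0.11. The lists were chosen with earlier results of these data known, so their shares are given as a description.

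Among 18 genes of retinoic acid signaling, a signal that was in the medium throughout, 8 of 80 tested elements were higher at day 6 (10%) and 2 lower (2.5%), with a median log2 fold change of 0.04. When day 6 replicate 3 at 100 nM was left out, 8 were higher and 5 lower.

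Upstream of Cyp26b1, which encodes an enzyme that degrades retinoic acid, 2 of 8 elements were called, both in intron 20 of the neighboring gene Exoc6b. At chr6:84640270-84641379 normalized counts were between 83.6 and 315 at day 5 and between 472 and 1071 at day 6, a 4.59-fold rise with an adjusted p of 3.15e-05. At chr6:84630144-84630898 they were between 40.6 and 123 and between 168 and 420. Both elements were higher in every day 6 sample than in any day 5 sample.

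Nr2f1 and Nr2f2 encode the orphan nuclear receptors COUP-TFI and COUP-TFII. A distal intergenic element at chr13:79136560-79137283 was assigned to Nr2f1 and lay at -938048 bp relative to the Nr2f1 TSS. Its normalized counts were between 36.9 and 51.3 at day 5 and between 142 and 274 at day 6. In all 2 of 15 Nr2f1 elements were higher, and of 15 Nr2f2 elements 1 was higher and 1 lower. The promoter of Stra6, a retinol importer, was the only Stra6 element tested and fell, with a log2 fold change of -1.08, and 1 of 4 elements of Dhrs3, a retinaldehyde reductase, rose by 1.04.

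Of 136 tested elements near dorsoventral patterning TFs, 9 were higher (6.62%) and 4 lower (2.94%), with a median log2 fold change of 0.08. Leaving out day 6 replicate 3 at 100 nM gave 12 higher and 4 lower of 138. Irx3, an Iroquois homeobox gene expressed in p2 and more dorsal progenitors, had 5 called elements of 19, 2 higher and 3 lower, and shared with Nrxn3 the most called elements of any gene. An intergenic element at chr8:91996418-91997881, upstream of Irx3, was between 226 and 1243 at day 5 and between 933 and 2725 at day 6, a 2.81-fold rise with an adjusted p of 0.00261. The groups overlapped there. Farther upstream, at chr8:92016060-92016937, an element was between 210 and 259 at day 5 and between 52.5 and 138 at day 6, a 2.87-fold fall with an adjusted p of 0.00018 and no overlap. Elements assigned to the same gene thus moved in opposite directions over the same day.

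An element near Irx6, another Iroquois gene of that cluster, at chr8:92742576-92743915, was between 56.7 and 218 at day 5 and between 317 and 647 at day 6. An element near Sp8, a zinc finger TF, at chr12:118829616-118830339, was between 127 and 373 and between 425 and 792. For Irx1, Dbx1, Dbx2, Olig3 and Gsx1, all TFs of more dorsal progenitors or of progenitors of other domains, 1 element each was higher, with log2 fold changes between 1.08 and 1.42. Of the 7 Nkx6-2 elements tested, 1 was lower, with a log2 fold change of -1.36.

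Proneural TFs drive progenitors out of the cycle. Of 78 elements near proneural and cell cycle exit genes, 4 were higher (5.13%) and 0 lower, with a median log2 fold change of 0.33. The 4 lay near only 2 genes. With day 6 replicate 3 at 100 nM left out 5 were higher and 0 lower. An element near Atoh1, a proneural gene of dorsal progenitors, was at the threshold (2.00-fold, adjusted p of 0.0039) and was no longer called under 14 of 26 alternatives.

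TFs of V2 interneurons, the neurons that p2 cells make, had 5 of 53 elements higher (9.43%) and 1 lower (1.89%), with a median log2 fold change of 0.25. With all samples the 5 lay near only 2 genes. This list overlaps the proneural list, so the counts of these lists are not independent. The counts were 6 higher and 1 lower of 54 when day 6 replicate 3 at 100 nM was left out. The elements higher at day 6 included 2 of the 5 Lhx3 elements. Lhx3 encodes a LIM homeodomain TF of V2 interneurons and motor neurons. At chr2:26175047-26175846 its normalized counts were between 75.9 and 333 at day 5 and between 281 and 536 at day 6, which overlapped, with a 2.29-fold rise and an adjusted p of 0.00119. The element that fell was near Gata3, a TF of the V2b subtype, with a log2 fold change of -1.05. No Foxn4 or Tal1 element was called in either direction.

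In the Notch pathway, which holds cells as progenitors, 3 of 67 elements were higher (4.48%) and 0 lower, with a median log2 fold change of 0.18. Leaving out day 6 replicate 3 at 100 nM gave 3 higher and 4 lower. An intergenic element at chr2:137457123-137457844 was assigned to the ligand gene Jag1 and lay at -340963 bp relative to the Jag1 TSS. Its normalized counts were between 70.5 and 129 at day 5 and between 227 and 396 at day 6. The others were near Hey1 and in Heyl, which encode repressors downstream of Notch, and rose 2.36-fold and 2.29-fold with overlapping days. Both were lost without the SAG covariate, with adjusted p values of 0.0303 and 0.0382.

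Of 58 elements near genes of progenitor maintenance, 1 was higher, that of Hey1, and 1 lower. The latter lay near Sox1, a SOXB1 TF of neural progenitors, in intron 1 of Sox1ot at chr8:12409016-12410666. It was between 260 and 693 at day 5 and between 62.0 and 179 at day 6, a 3.99-fold fall with an adjusted p of 0.000123. The list had 1 higher and 4 lower elements without day 6 replicate 3 at 100 nM.

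Among 83 elements near neuronal genes, 2 were higher and 1 lower, close to the background, although the list had a median log2 fold change of 0.33. An element near Gap43, a growth cone protein, at chr16:42351826-42352896, was between 56.7 and 135 at day 5 and between 255 and 546 at day 6, a 4.53-fold rise with an adjusted p of 4.41e-05. An intronic element of Dcx, a microtubule protein of young neurons, rose 2.12-fold with overlapping days. An element at chr10:109359428-109360553 was assigned to Syt1, a synaptic vesicle protein, and lay at -349015 bp relative to the Syt1 TSS. Its normalized counts fell from between 266 and 300 to between 56.8 and 90.0, with an adjusted p of 3.06e-06 by limma. The list had 4 higher and 3 lower when day 6 replicate 3 at 100 nM was left out.

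For late and gliogenic genes the counts were 2 higher and 1 lower of 44, and 1 higher and 1 lower when day 6 replicate 3 at 100 nM was left out. With all samples they were an intronic element of Nfia, a TF of the switch to gliogenesis, at chr4:97805891-97807098, which was between 72.1 and 145 at day 5 and between 220 and 308 at day 6, an intronic element of Slc1a3, a glutamate transporter of radial glia and astrocytes (2.02-fold, and not called under 10 of 26 alternatives), and an intronic element of Tnc, an extracellular matrix glycoprotein, which fell 2.08-fold. Among 40 elements near early temporal genes, such as Lin28b and Hmga2, 0 were called with all samples and 2, both lower, without day 6 replicate 3 at 100 nM.

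In the FGF pathway, which keeps caudal cells undifferentiated, 0 of 71 elements were higher and 3 lower (4.23%), and with day 6 replicate 3 at 100 nM left out 1 of 72 was higher and 4 lower. The 3 called with all samples lay near Spry2, Dusp6 and Fgfr2, the first 2 being feedback inhibitors and the third a receptor. At Spry2, chr14:105920256-105921269, normalized counts were between 375 and 715 at day 5 and between 118 and 304 at day 6, a 2.71-fold fall with an adjusted p of 0.000754. Dusp6 fell 2.13-fold without overlap and Fgfr2 2.16-fold with overlap.

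In the Hedgehog pathway, the one that SAG activates, 1 of 43 elements was called, and 1 of 44, also lower, when day 6 replicate 3 at 100 nM was left out. With all samples it lay in intron 17 of Cdon, a co-receptor of Shh, at chr9:35493255-35496096, and fell from between 133 and 210 to between 41.9 and 84.4, with an adjusted p of 6.68e-05. Of 84 Wnt pathway elements 1 was lower, in an intron of the feedback inhibitor Nkd1 (2.11-fold), and 4 were lower without day 6 replicate 3 at 100 nM. Of 54 elements near Hox genes, which set position along the body axis, 1 was higher, at chr6:52194437-52195148 near Hoxa4 within Hoxa3, where counts went from between 117 and 346 to between 483 and 1177. The number higher was 3 when day 6 replicate 3 at 100 nM was left out.

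**Figure D4:**
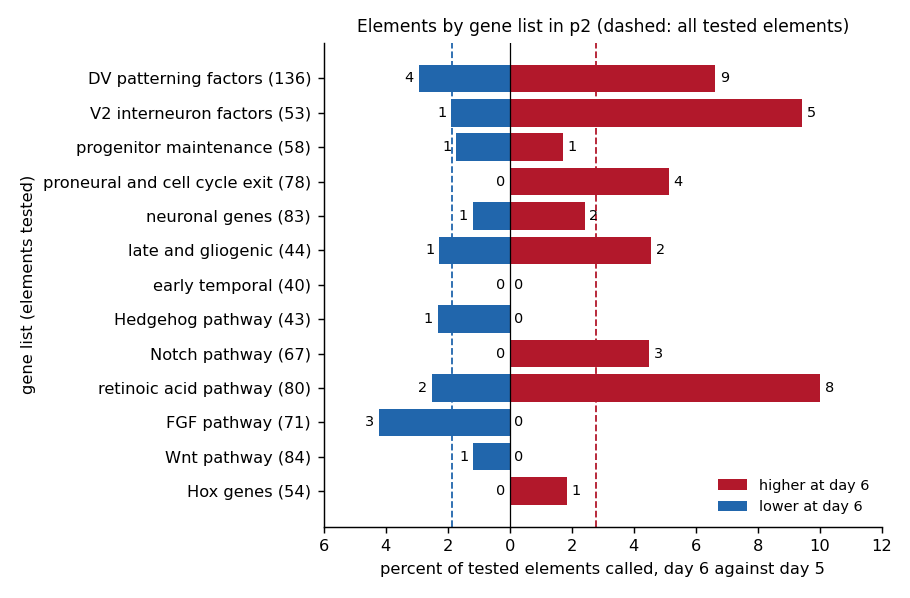
Percent of tested elements called between day 5 and day 6 in p2 for 13 gene lists (higher to the right in red, lower to the left in blue), with the number of elements at each bar and the number tested in brackets. Dashed lines are the 2.77% and 1.85% of all tested elements; the retinoic acid list reaches 10% higher and the early temporal list has 0 in either direction.

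The elements nearest the starts of the marker genes were examined, and none was called between the days. The Sox2 element had means of 1632 ± 65.6 at day 5 and 1778 ± 70.0 at day 6 (SD, n = 6 each), the Pax6 element 3299 ± 254 and 3387 ± 204, and the Irx3 element 2477 ± 305 and 2566 ± 389. The direction of the small Pax6 and Irx3 differences turned with centering on the median and with a GC correction. The Nkx6-1 element went from 2053 ± 106 to 2431 ± 151, a 1.18-fold difference with an adjusted p of 0.00418 and no overlap, under the 2-fold threshold. At day 6 the Olig2 element had a mean of 921 in p2, 2325 in pMN and 408 in p0-1, and the Pax6 element 3387 in p2 against 1696 in p3 (from 100 and 500 nM SAG). The Olig2 element of p2 thus lay between those of p0-1 and pMN. It stood at 1005 in p3 at day 6 and at 1114 in the neuromesodermal progenitors of day 3. At day 6 the Pax6 element stood at 3889 in p0-1 and 3208 in pMN, and the Irx3 element at 3014 and 2375. The Nkx2-9 element stood at 1167 in p2, 647 in p0-1, 2091 in pMN and 1914 in p3. These elements were open outside p2 too, so they do not settle the sorted identity.

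Markers of other cell types were examined as summed normalized counts over their elements. For motor neuron genes, 3 of 18 tested elements were higher at day 6 (16.7%, against 2.77% of all tested), 2 of Lhx3 and 1 of Isl1. The 2 Lhx3 elements are those already counted with the V2 interneuron list. The Isl1 element lay 558315 bp from the Isl1 TSS. For this list the sum was between 6216 and 8468 at day 5 and between 6729 and 9957 at day 6. For neuromesodermal and mesodermal genes, 0 of 9 were called and the sum went from between 3736 and 4290 to between 3426 and 3774. For floor plate and endoderm genes, 2 of 27 were lower (7.41%, against 1.85% of all tested), and the sums overlapped. Both were near Foxa2, a forkhead TF, with log2 fold changes of -1.22 and -2.14. For neural crest genes 0 of 20 were called, but the sums did not overlap, going from between 9082 and 10299 to between 10520 and 12302. The median log2 fold change of this list was 0.22, against 0.11 for all tested elements. The sums were not centered, and the part of the general shift in them was not tested. Genes of pluripotent cells (10), V0, V1 and V3 neurons (17) and endothelium and blood (11) had 0 called, and their sums overlapped. Without day 6 replicate 3 at 100 nM, 1 element each of the mesodermal and endothelial lists was lower. The part of such cells in the changes was not tested.

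The central 300 bp of elements outside promoters were scored for whether they held each short motif on either strand. The TEAD motif GGAATG was in 30.6% of the elements lower at day 6, 16.4% of those higher and 17% of all tested. Its share of the lower elements was 36.8% when day 6 replicate 3 at 100 nM was left out. The nuclear receptor hexamer AGGTCA was in 32.6% of the elements higher at day 6, 22.4% of those lower and 18.7% of all. The NEUROG and NEUROD E-box CAGATG was in 33.9%, 22.3% and 23.5%, and the E-box CATATG in 8.83%, 5.1% and 4.4%.

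The POU motif ATGCAAA was in 10.3% of elements higher, 5.78% of those lower and 5.61% of all. The SOX motif ACAAAG was more frequent in both directions, at 42% and 38.6% against 29.2%. The GLI motif GGGTGGT, of the TFs downstream of Shh, was in 4.92%, 5.78% and 4.67%, and the forkhead motif TGTTTAC in 2.68%, 3.4% and 3.47%. Called elements had lower GC content than all tested elements, and the part of base composition in these shares was not tested. The motifs, too, were chosen with earlier results of these data known.

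Whether the change depended on SAG was asked by the interaction of day and concentration. By limma, 0 of 32424 elements passed an adjusted p under 0.01 with a 2-fold difference between the concentrations, 375 had an unadjusted p under 0.05, and the smallest adjusted p was 1. When nothing differs, a threshold of 0.05 passes more of 32424 elements than 375. The test without the replicate numbers was thus conservative, and little can be read from its 0. With the replicate number as a block, 0 passed again by limma, with a smallest adjusted p of 0.554. Of the 1496 called elements, all had the same direction at 10 and 100 nM and 1143 differed more than 2-fold at both, while 27119 of all 32424 tested elements had the same direction. The calls were made on the mean over both concentrations, which favors agreement, so that nothing is read from it. Median log2 fold changes at 10 and 100 nM were 1.22 and 1.40 for elements higher at day 6 and -1.37 and -1.16 for those lower. Day 6 at 100 nM includes the replicate 3 that lay near day 5, and a test that finds no element does not show that the concentrations act alike.

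The neighboring NP types were compared over the same days. In p0-1, from 0 and 10 nM SAG, 11 samples gave 1393 called elements of 31401 (4.44%), and in pMN, from 100 and 500 nM SAG, 9 samples gave 1497 of 32812 (4.56%). Of the p2 elements, 766 were also called in p0-1, which was 51.2% of the p2 calls and 55% of the p0-1 calls, and 783 in pMN, which was 52.3% of each. Not every p2 call passed the mean filter of the other type, and one that did not could not be shared. Of the 897 higher in p2, 579 were tested in p0-1 and 766 in pMN. Of the 599 lower, 550 and 488 were tested. All 766 and 783 changed in the same direction in both types. No sample was shared, but p2 and p0-1 at 10 nM, and p2 and pMN at 100 nM, were sorted out of the same cultures by the study's design, so that the types share differentiations and are not independent in their agreement. Without day 6 replicate 3 at 100 nM, the shared calls were 863 and 839, which was 35.4% and 34.4% of the 2439 p2 calls, 62% of the p0-1 calls and 56% of the pMN calls.

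Elements higher in p2 at day 6 had a median log2 fold change of 1.28 in p2, 1.30 in p0-1 and 1.28 in pMN, and elements lower had medians of -1.24, -1.11 and -1.03. All 1496 had the same sign in p0-1, and all but 3 in pMN, compared with 86.5% and 85.8% of all tested elements. The 3 exceptions were near Eci2 and in Bmpr1b, which rose in p2 and had log2 fold changes of -0.06 and -0.15 in pMN, and near Trim32, which fell in p2 and had 0.09 in pMN. The interaction of day and type was past the thresholds at 0 of 31932 elements for p0-1 and 0 of 32624 for pMN by limma, with 1548 and 1875 at an unadjusted p under 0.05 and smallest adjusted p values of 0.237 and 0.172. A fit blocked on replicate number again gave 0 past both thresholds, but the smallest adjusted p values were 0.0131 and 0.0033, so that for pMN at least 1 element passed the first threshold without a 2-fold difference between the types.

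**Figure D5:**
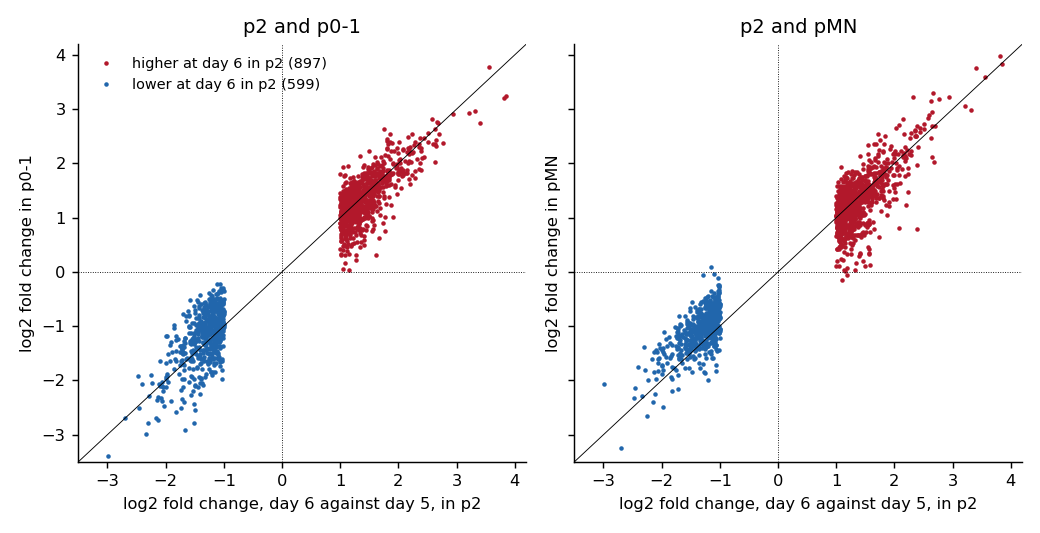
Log2 fold change between day 5 and day 6 in p0-1 (left) and pMN (right) against that in p2 (horizontal axes) for the 897 elements called higher and the 599 called lower in p2; the line marks equal change. All but 3 points, which are in the pMN panel, lie in the quadrants of equal sign.

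At single elements the levels nevertheless differed between types, given here as day 6 means with no test. The Olfr509 element stood at 399 in p2, 409 in p0-1, 497 in pMN and 36.1 in p3, the most ventral progenitors, which came from 100 and 500 nM SAG. The element at chr8:91996418-91997881 near Irx3 stood at 1999 in p2, 974 in p0-1, 1397 in pMN and 189 in p3.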

How the data were processed

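CaTS-ATAC libraries of 12 p2 samples were compared with those of p0-1 (11) and pMN (9) at the same days. Per the methods and the labels, the authors ran nf-core/atacseq on mm10, called peaks with MACS, counted reads in consensus intervals present in at least 2 replicates and deposited the log2 values of DESeq2's variance-stabilizing transformation, with an annotation of the nearest TSS. The transformation was inverted to normalized counts, and reads were whole to within 5.98e-11. Samples had 13485605 to 29985325 reads in elements, while the standard errors come from the spread between samples.

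Models were fitted to the log2 values with limma 3.58.1 (R 4.3.3), two-sided, with SAG concentration as covariate and a variance trend, for elements with a mean above 100. Fold changes are log2 ratios of mean normalized counts plus 1, averaged over SAG concentrations. Replicate numbers paired samples: over 18 pairs of same-numbered samples of different conditions, deviations from condition means correlated between 0.417 and 0.771. Over 36 such pairs with different numbers they correlated between -0.714 and 0.512, so the ranges overlapped. Fits were also run on simulated reads drawn independently for each sample. These had no shared replicate effect, so they do not show how the fits perform on samples paired by number.

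Named elements were the 10 largest increases and decreases past the stricter rule, up to 4 called per gene list, those nearest the starts of sort markers, and any past an interaction test. Elements outside this rule are said to be so or are counted with their list. Members were picked by labels and not by values, but this choice, the lists and the motifs were made with earlier results of these data known. Results at some genes are not reported here. Sequences came from GRCm38 (RefSeq). Alternatives covered filter, scale, pseudocount, covariate, trend, block, GC content, centering, voom and left-out samples.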

Additional observations from a re-analysis of the deposited data

Results flagged for a closer look

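For each element reported by the rule, and for depth and position, the day 5 and day 6 samples were searched for a sample whose gap to the next exceeded 0.625 of the range of its 6. Of 106 such groups 5 held one, and chance flags about 1 in 20. In 4 it was day 6 replicate 3 at 100 nM, which lay toward day 5 each time. Its normalized counts were 752 at Fgfr2 against 455 for the next sample, 135 at Zfand3 against 53.4, 103 at Chmp4c against 58.5 and 77.9 at Atp6v0a1 against 35.5. The remaining one was day 5 replicate 1 at 100 nM, at 48.6 near Mir125b-1 against 24.3. The cause was not tested.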

How the results depend on the processing

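The 1496 elements called past 2-fold became 6668 with no filter on the mean and 2899 with a mean above 50, and 84 at 10 nM alone and 57 at 100 nM alone, where 3 samples met 3. The 97 past the stricter rule became 457 and 190, 33 and 22, 59 with the fold as the difference of deposited values and 61 with a pseudocount of 10. Of elements called, 60% were higher at day 6, but 49.4% after centering, 51.9% with no filter, 48.4% without day 6 replicate 3 at 100 nM, and 47% of 1981 in the 8 samples numbered 1 or 2, an alternative chosen after seeing the data. With the replicate number as a block 1685 were called, 1683 with a GC correction added and 1470 with that correction alone, which left 51% and 53.9% higher. limma's voom on recovered reads called 1605. Leaving out each sample gave 1134 to 2439 and, by the stricter rule, 71 to 165. Elements near listed genes numbered 46, 137 with no filter, 51 with the block and 39 to 73 leaving out each sample; day 6 replicate 3 at 100 nM gave the highest of these counts. Calls in p0-1 were 6234 with no filter and 1119 to 1969 leaving out each sample, and in pMN 5369 and 1258 to 1543. Interactions had 0 past both thresholds in every alternative run, leaving out each sample included. Causes were not tested. The Irx3 start element had a log2 fold change of -0.0924 with the GC correction, with or without the block, -0.0439 after centering and -0.0187 to 0.135 leaving out each sample, and that of Pax6 -0.0681 and -0.0565; neither was called. No other named element changed direction. Replicate numbers of some p0-1 and pMN samples differ between titles and descriptions, and those of the titles were used.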

Other observations

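Some genes with several called elements lie outside the lists and were singled out after their values were seen. Nrxn3, a synaptic adhesion gene, had 5 called elements of 19 tested, all intronic, 2 higher at day 6 and 3 lower. The log2 fold changes were between -1.20 and 1.69. Cdh11, a cadherin, and Ncam1, a neural adhesion molecule, had 3 each, all higher, with log2 fold changes between 1.04 and 2.33 and between 1.12 and 1.47. In all, 1298 genes were nearest to a called element and 58 had called elements in both directions.

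On the scale from day 5 to day 6 of p2, set by all 1496 called elements, p2 samples of day 4 lay between -0.784 and -0.565. The neuromesodermal progenitors of day 3, without SAG, lay between -0.195 and -0.159, above the p2 samples of day 4, so that the scale is not an order in time. The p0-1 samples lay between -0.378 and -0.0537 at day 5 and between 0.400 and 1.01 at day 6. The pMN samples lay between 0.0326 and 0.315 and between 0.940 and 1.16, and the p3 samples, from 100 and 500 nM SAG, between -0.319 and -0.146 and between 0.263 and 0.495.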
